A study of Mus musculus with 14 samples.

Results

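The intermediate filament and lamin genes studied here were 10 genes, chosen by symbol: nestin (Nes), vimentin (Vim), alpha-internexin (Ina), neurofilament light chain (Nefl), Gfap, the keratins Krt8, Krt18 and Krt19, lamin A/C (Lmna) and lamin B1 (Lmnb1). They were read by 16 probes, of 25697 probes on the array and of 16593 genes with a symbol. Lmna had 5 probes, Nes and Lmnb1 had 2 each, and the other genes had 1. Where a gene had several probes, the one with the highest mean over all arrays stands for the gene, and the others are given where they differ. Gene expression was measured with Illumina MouseRef-8 v2 arrays in 7 groups with 2 arrays each, 14 arrays in all.

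The brain-NSCs, the reference group, were neural stem cells (NSCs) from brains of 13.5 dpc (days postcoitum) mouse fetuses that were ROSA26/OG2 heterozygous double transgenic, carrying an Oct4-GFP reporter (OG2) and a neo/lacZ gene (ROSA26). The MEFs (mouse embryonic fibroblasts) came from 13.5 dpc fetuses of the same genotype. Induced pluripotent stem cells (iPSCs) had been made from such MEFs with retroviruses for Oct4, Sox2, Klf4 and c-Myc. The iPS-NSCs #1 and #3 are 2 NSC lines differentiated from them in culture. The iPS-cNSCs came from the iPSC-derived, neo-selected cells of 13.5 dpc chimeric brains. The NED-NSCs came from the normal embryo-derived, X-gal-negative cells of chimeric brains, also labelled as 13.5 dpc. The host embryos of the chimeras were B6C3F1, and the paper's PCR found neither the retroviral transgenes nor Oct4-GFP in the NED-NSCs. The ESCs (embryonic stem cells), labelled as 3.5 dpc, were OG2 heterozygous double transgenic and were grown on feeder MEFs with LIF. All NSCs were grown with EGF and bFGF. The methods describe NSC lines raised from single cells, and whether the 2 arrays of a group came from separate cultures is not given in the sources used here, so p-values measure only the spread between arrays.

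Intermediate filaments are rope-like polymers of coiled-coil proteins, and which subunits a cell makes follows its type. Epithelial cells use pairs of a type I keratin (Krt18, Krt19) and a type II keratin (Krt8), mesenchymal cells use vimentin, neural progenitors use vimentin with nestin, astrocytes add GFAP, and neurons use alpha-internexin and the neurofilament proteins. The lamins form a separate branch inside the nucleus: B-type lamins are made in nearly all cells, whereas A-type lamins are low in early embryonic cells and high in stiff mesenchymal tissue.

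The values below are the deposited log2 signals, normalized by the authors so that all arrays have the same distribution (median 7.67). A probe was taken as above background at a log2 level of 7.7 or more. No background was subtracted, so a difference in a dim gene is smaller on this scale than after background correction. Differences were tested with limma over all probes, and a gene was called where its adjusted p was under 0.05 and its change over 2-fold. All comparisons against brain-NSCs share the same 2 control arrays. Replicate arrays correlated at 0.993 to 0.9981 (Pearson, across probes). Raw intensities bottomed out lower in MEFs and iPS-cNSCs (79.8 to 96.2) than in brain-NSCs, NED-NSCs and ESCs (119.2 to 132.2), and rescaling the raw intensities to equal medians moved the median of the expressed probes by 0.58 for iPS-cNSCs against brain-NSCs. Its part in the results was not tested, and values under that scaling are given beside several of the results below. Of markers for NSCs, 6 to 8 of 10 were above background on both arrays of each NSC group, although Pax6 and Msi1 were above it on no NSC array. Of fibroblast markers, 11 of 11 were above background in MEFs and 7 of 11 in ESCs, with a summed signal of 168000 to 173000 in MEFs and 15000 to 15800 in ESCs, against 2200 to 4730 in the NSC groups. Of pluripotent cell markers, 8 of 9 were above background in ESCs and 1 to 3 in the other groups. In such bulk samples, fewer cells of a type and less RNA per cell cannot be told apart.

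Promoters were matched in the RefSeq table (build GRCm38.p6) for 7 of the 10 genes, from 250 bases before to 50 bases after a transcription start. Those of the called genes Vim, Nes, Lmna and Ina are shown, because their signals moved between groups by more than 2-fold. Capitals mark letters found by a search of both strands for 4 motifs, none of which overlap in these windows. The TATA box was searched as TATAAA. The letters of the CCAAT box are its name. The GC box was searched with the letters GGGCGG. The AP-1 motif was searched as TGANTCA, with N for any base. Among 32851 promoters of the same length, the TATA box was found in 13.6%, the CCAAT box in 37.4%, the GC box in 35.7% and the AP-1 motif in 7.8%. A match is a description of the letters and not a shown binding site.
Vim, chr2:13574061-13574360, plus strand: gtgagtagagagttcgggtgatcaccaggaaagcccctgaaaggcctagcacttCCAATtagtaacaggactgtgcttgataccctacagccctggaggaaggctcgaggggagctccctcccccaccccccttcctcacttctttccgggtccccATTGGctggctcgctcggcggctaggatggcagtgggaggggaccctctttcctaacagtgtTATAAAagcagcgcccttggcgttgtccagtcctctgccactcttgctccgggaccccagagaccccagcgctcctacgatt
Nes, chr3:87970843-87971142, plus strand: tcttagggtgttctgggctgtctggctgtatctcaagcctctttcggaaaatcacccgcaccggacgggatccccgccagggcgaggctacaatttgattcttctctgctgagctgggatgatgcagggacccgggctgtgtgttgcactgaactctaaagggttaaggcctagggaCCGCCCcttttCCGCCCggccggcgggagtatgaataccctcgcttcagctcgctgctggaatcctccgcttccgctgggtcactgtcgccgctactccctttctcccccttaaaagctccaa
Lmna, start at 88503352, chr3:88503303-88503602, minus strand: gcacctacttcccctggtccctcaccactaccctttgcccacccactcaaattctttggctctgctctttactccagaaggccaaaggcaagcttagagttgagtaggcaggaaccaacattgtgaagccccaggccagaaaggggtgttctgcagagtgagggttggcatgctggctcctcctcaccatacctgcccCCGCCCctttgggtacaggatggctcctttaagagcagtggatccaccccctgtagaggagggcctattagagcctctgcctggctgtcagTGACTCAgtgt
Lmna, start at 88493312, chr3:88493263-88493562, minus strand: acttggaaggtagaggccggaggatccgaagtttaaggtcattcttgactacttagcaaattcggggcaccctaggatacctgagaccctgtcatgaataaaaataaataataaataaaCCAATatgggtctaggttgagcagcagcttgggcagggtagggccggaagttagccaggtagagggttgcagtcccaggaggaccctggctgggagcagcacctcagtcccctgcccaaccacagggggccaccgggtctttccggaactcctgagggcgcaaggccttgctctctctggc
Ina, chr19:47014431-47014730, plus strand: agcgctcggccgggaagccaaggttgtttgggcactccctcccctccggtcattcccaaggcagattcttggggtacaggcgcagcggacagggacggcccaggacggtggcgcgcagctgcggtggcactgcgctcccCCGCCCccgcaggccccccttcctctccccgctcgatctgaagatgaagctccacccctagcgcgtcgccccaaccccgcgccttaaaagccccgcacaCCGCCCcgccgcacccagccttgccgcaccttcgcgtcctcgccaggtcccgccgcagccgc
The Vim promoter held a TATA box from position -32 and 2 CCAAT boxes from -196 and -94. The Nes promoter held 2 GC boxes from -73 and -62, and the Ina promoter 2 from -111 and -12. The first Lmna start shown had an AP-1 motif from position 39, within the transcribed part, and a GC box from -52, whereas the second had only a CCAAT box from -131. Both Lmna starts lie inside the gene, whose 5' end on the minus strand is at 88509932, and no window at that end was matched. Nes (chr3:87971093-87980451) and Lmna (chr3:88481148-88509932) lie on the same chromosome, and Krt8 (chr15:101996711-102004342) and Krt18 (chr15:102028216-102032026) lie beside each other.

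Of the 10 genes, Nes, Vim, Lmna and Lmnb1 were above background on all 14 arrays, and Krt8 on 10. Ina was above background on 6 arrays, Krt18 on 4, Gfap on 3, Krt19 on 2 and Nefl on 1. The signals of Nes, Vim, Lmna and Lmnb1 thus carried most of the differences, and their group means spanned 3.30 to 4.08 on the log2 scale, against 0.29 to 1.25 for the other 6 genes. At the stricter level of 7.9, which matches a detection p of 0.01, Krt8 was above background on 3 arrays and Krt19 and Nefl on none.

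**Figure D1:**
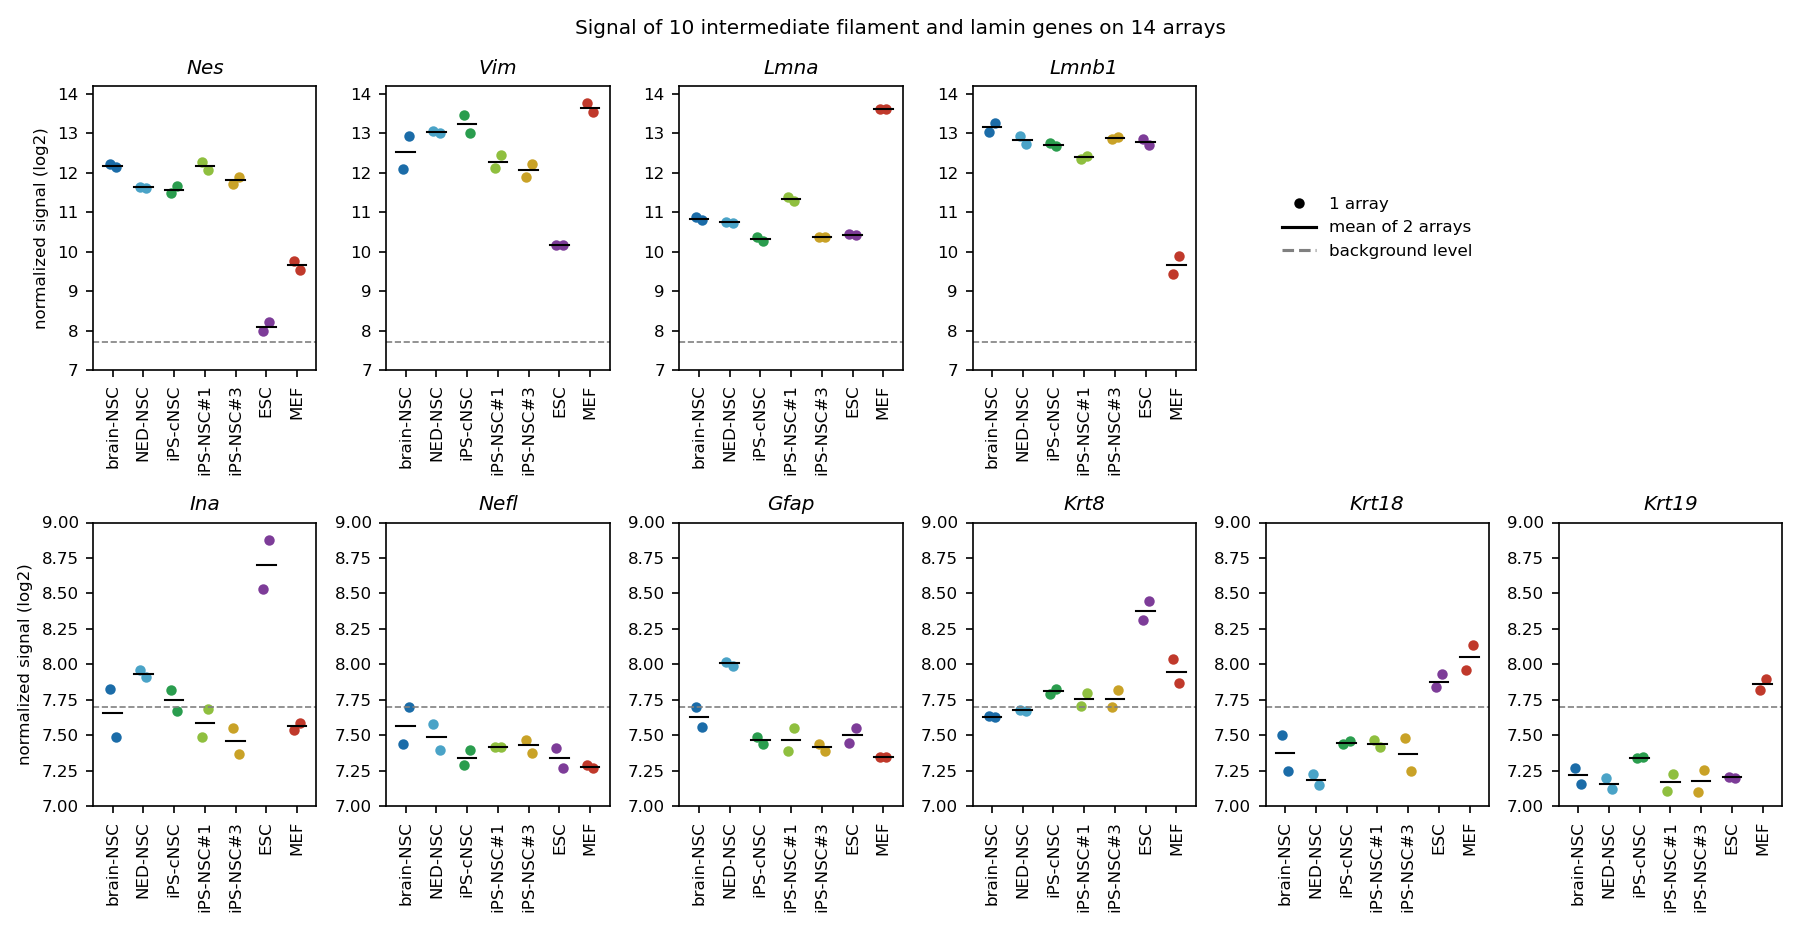
Normalized log2 signal of the 10 genes (brightest probe) on each array of the 7 groups. Points are arrays, bars the mean of 2 arrays, and the dashed line the background level of 7.7. The lower row has a narrower axis for the 6 dim genes. Nes stood high in every NSC group, Lmnb1 in every group except MEFs, and Lmna stood highest in MEFs, at 13.61 and 13.62.

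Against brain-NSCs, no member gene was called in iPS-NSCs #1, iPS-NSCs #3, iPS-cNSCs or NED-NSCs. Of all probes, 2.11%, 2.84%, 2.76% and 1.81% were called in these comparisons, in that order, so a list of 10 genes would have few calls at the background share. At an adjusted p under 0.05 with no limit on the fold, 1 gene was higher and 1 lower in iPS-NSCs #1, 2 were lower in iPS-NSCs #3, 1 was higher and 3 lower in iPS-cNSCs, and 1 was higher and 1 lower in NED-NSCs, where 19.8%, 20.1%, 34.7% and 17.3% of all probes passed that limit. In ESCs, 3 of 10 genes were called (Ina higher, Nes and Vim lower), with 10.3% of all probes called. In MEFs, 4 of 10 were called (Lmna and Vim higher, Nes and Lmnb1 lower), with 12.3% of all probes called. Among the 12195 probes above background on at least 7 arrays, the called share was 18.8% in ESCs and 22.8% in MEFs.

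**Figure D2:**
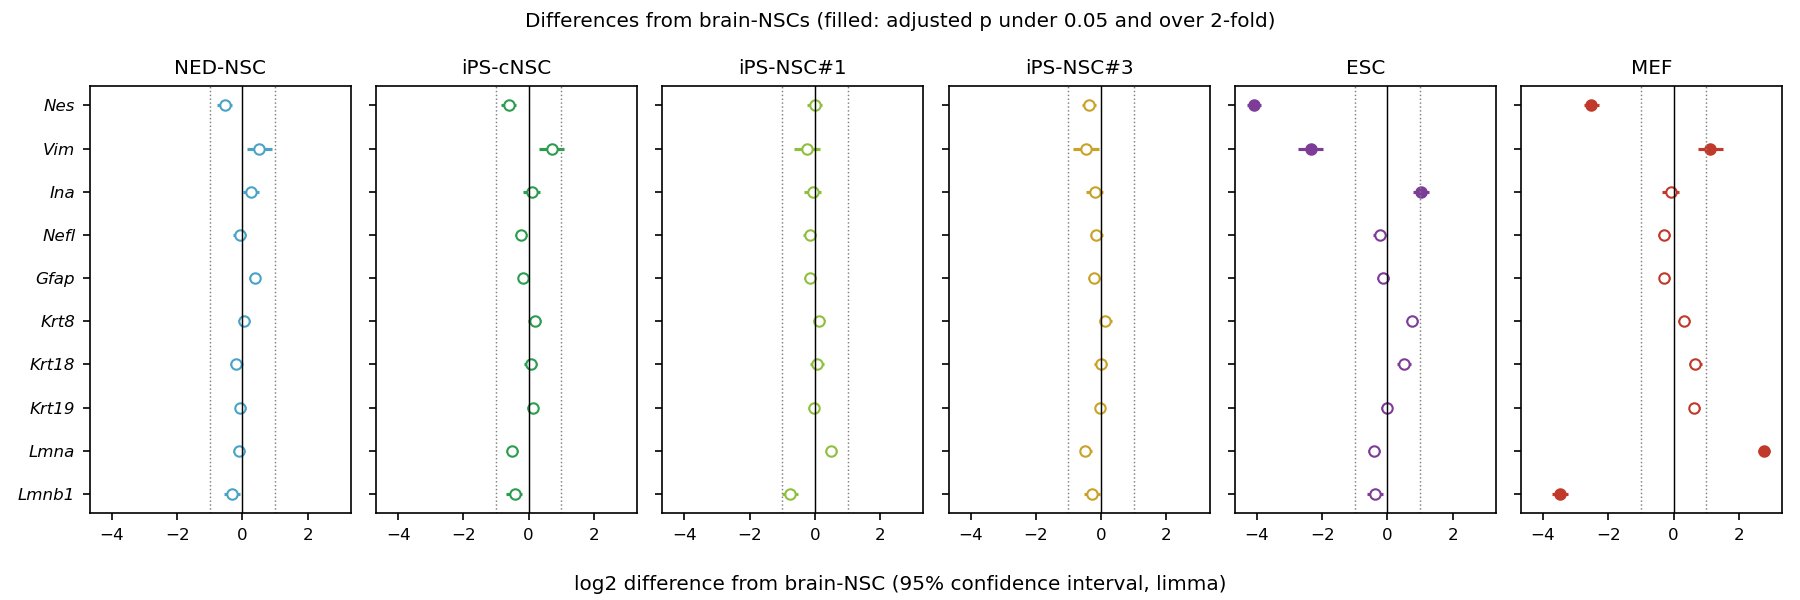
Log2 difference of each gene from brain-NSCs (x axis) for the 6 other groups, with 95% confidence intervals from limma, each against the same 2 brain-NSC arrays, with filled points for called genes and dotted lines at a 2-fold change. The filled points lie in the ESC panel (3 genes) and the MEF panel (4 genes), and Lmna and Lmnb1 lie on opposite sides of 0 in MEFs, at 2.78 and -3.49.

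Nestin is the intermediate filament protein most used to mark neural progenitors. Its signal was 12.23 and 12.14 in brain-NSCs, 12.27 and 12.07 in iPS-NSCs #1, 11.72 and 11.89 in iPS-NSCs #3, 11.65 and 11.62 in NED-NSCs and 11.49 and 11.66 in iPS-cNSCs. It was 9.77 and 9.54 in MEFs and 7.99 and 8.21 in ESCs. The NSC arrays thus lay together and apart from both other cell types, with no overlap, and the ESC arrays lay just above background. Nes was 17.0-fold lower in ESCs than in brain-NSCs (log2 difference -4.08, SE 0.11, adjusted p = 2.9e-18) and 5.77-fold lower in MEFs (-2.53, SE 0.11, adjusted p = 1e-14). MEFs were themselves above ESCs by 1.56 (SE 0.11, adjusted p = 4e-11). The second Nes probe, which was dimmer, was also called lower than in brain-NSCs in ESCs (at least 2.71-fold) and in MEFs (-1.15).

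Among the NSC groups, Nes ordered as brain-NSCs, iPS-NSCs #1, iPS-NSCs #3, NED-NSCs and iPS-cNSCs by mean. Brain-NSCs and iPS-NSCs #1 did not differ beyond their spread (0.01, SE 0.11, adjusted p = 0.97), nor did iPS-NSCs #3 and NED-NSCs (0.17, adjusted p = 0.36) or NED-NSCs and iPS-cNSCs on the deposited scale (0.06, adjusted p = 0.71), whereas under median scaling iPS-cNSCs were above NED-NSCs by 0.93 (adjusted p = 5.3e-06). Both chimera-derived groups were below brain-NSCs by under 2-fold, NED-NSCs by -0.55 (SE 0.11, adjusted p = 0.00092) and iPS-cNSCs by -0.61 (adjusted p = 0.00016), but the iPS-cNSC difference became 0.11 under median scaling (adjusted p = 0.39). The 2 in vitro lines differed by 0.37 (iPS-NSCs #1 minus #3, adjusted p = 0.03), a difference of the same sign in the second probe (0.22, adjusted p = 0.18). Against brain-NSCs, the second probe was higher in iPS-NSCs #1 by 0.35 (adjusted p = 0.015) and gave 0.12 in iPS-NSCs #3 (adjusted p = 0.47), so the order holds for the brightest probe.

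Vimentin, which forms filaments in mesenchymal and progenitor cells, was bright on every array. Its signal was 13.76 and 13.55 in MEFs, 13.46 and 13.00 in iPS-cNSCs, 13.07 and 13.01 in NED-NSCs, 12.10 and 12.94 in brain-NSCs, 12.11 and 12.45 in iPS-NSCs #1, 11.89 and 12.23 in iPS-NSCs #3, and 10.16 and 10.18 in ESCs. The brain-NSC arrays differed by 0.84, the widest gap between replicates for any of the 10 genes, and none of the neighbouring pairs from MEFs down to iPS-NSCs #3 differed past an adjusted p of 0.05. ESCs alone stood apart, 5.11-fold below brain-NSCs (-2.35, SE 0.19, adjusted p = 4.7e-10). MEFs were 2.19-fold above brain-NSCs (1.13, SE 0.19, adjusted p = 2.4e-05), and without brain-NSC replicate 1 the difference was 0.71, no longer past 2-fold. Between MEFs and ESCs, the difference was 3.48 (SE 0.19, adjusted p = 3.4e-13).

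Vim was also the only member called in iPS-cNSCs against the mean of both iPS-NSC lines. The iPS-cNSC arrays (13.46 and 13.00) did not overlap the 4 iPS-NSC arrays (11.89 to 12.45), and the mean difference was 1.06 (SE 0.16, adjusted p = 1.8e-05), where 3.56% of all probes were called. The call turned on single arrays: the difference was 0.82 without iPS-cNSC replicate 1 and 0.97 without iPS-NSC#1 replicate 1 or iPS-NSC#3 replicate 1. Against line #1 alone the Vim difference was 0.95 (adjusted p = 0.00041), and Lmna was lower by -1.02 (adjusted p = 8.4e-09), past 2-fold. Against brain-NSCs, iPS-cNSCs had more Vim signal by 0.71 (SE 0.19, adjusted p = 0.0054), under 2-fold, and by 1.31 under median scaling. That difference was 0.28 without brain-NSC replicate 1 (adjusted p = 0.24) and 1.13 without brain-NSC replicate 2. At an adjusted p alone, Nes (-0.42) and Lmna (-0.53) were lower in iPS-cNSCs than in the mean of both iPS-NSC lines, although the Lmna arrays overlapped those of iPS-NSCs #3, and 40.4% of all probes passed that limit. Raw intensities of the iPS-NSC arrays were not used, so these values could not be checked under another scaling.

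Lamin A/C separated MEFs from all other groups. The lamin A/C signal was 13.61 and 13.62 in MEFs, 11.39 and 11.29 in iPS-NSCs #1, 10.89 and 10.79 in brain-NSCs, 10.76 and 10.73 in NED-NSCs, 10.44 and 10.42 in ESCs, 10.36 and 10.37 in iPS-NSCs #3 and 10.37 and 10.27 in iPS-cNSCs. MEF values stood far above every other array, and replicate arrays differed by at most 0.11. In MEFs, Lmna was 6.86-fold higher than in brain-NSCs (2.78, SE 0.09, adjusted p = 4.6e-17). All 5 Lmna probes were called in this comparison, at 2.29 to 3.32, and the difference of the brightest was 2.9 after background correction and 3.55 under median scaling. Against ESCs, the Lmna difference was 3.19 (SE 0.09, adjusted p = 4.1e-18).

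The 2 iPS-NSC lines stood on opposite sides of brain-NSCs for Lmna. In the brightest probe, it was higher in iPS-NSCs #1 by 0.50 (SE 0.09, adjusted p = 2e-04) and lower in iPS-NSCs #3 by -0.48 (SE 0.09, adjusted p = 0.00033), with no overlap between arrays. The 5 probes gave 0.33 (adjusted p = 0.063) to 0.58 in #1 and -0.48 to -0.20 in #3. In #3, the probes at -0.20 and -0.23 overlapped brain-NSCs (adjusted p = 0.3 and 0.23). Neither line could be checked under median scaling. The direct difference between the lines was 0.98 (SE 0.09, adjusted p = 3.5e-08), a fold of 1.97, just under the 2-fold limit, and it was 1.03 without iPS-NSC#1 replicate 2. No member was called between these lines, where 1.35% of all probes were. All 5 probes were higher in line #1, by 0.56 to 0.98, and each had an adjusted p of at most 0.0027. Lmna in iPS-cNSCs was lower than in brain-NSCs by -0.52 (adjusted p = 9.3e-05) and lower than in NED-NSCs by -0.42 (adjusted p = 0.00089) on the deposited scale, but under median scaling these differences turned to 0.31 and 0.62. The probes also disagreed: against brain-NSCs they ranged from -0.52 to 0.02, and against NED-NSCs 3 of 5 did not pass an adjusted p of 0.05. In ESCs the Lmna difference from brain-NSCs was -0.41 (adjusted p = 0.00066). Its probes ranged from -0.47 to -0.14, and those at -0.26 and -0.14 had an adjusted p of 0.051 and 0.45. In NED-NSCs the difference from brain-NSCs was -0.10 (interval -0.28 to 0.09, adjusted p = 0.56).

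Lamin B1, a B-type lamin, ran the other way in MEFs. Its signal was 13.04 and 13.25 in brain-NSCs, 12.85 and 12.90 in iPS-NSCs #3, 12.93 and 12.72 in NED-NSCs, 12.86 and 12.70 in ESCs, 12.75 and 12.67 in iPS-cNSCs, 12.35 and 12.42 in iPS-NSCs #1, and 9.44 and 9.88 in MEFs. The 4 groups iPS-NSCs #3, NED-NSCs, ESCs and iPS-cNSCs were neighbours that did not differ beyond their spread in the brightest probe on the deposited scale, and only MEFs fell far below. Under median scaling iPS-cNSCs were above NED-NSCs by 0.83 (adjusted p = 0.00015), and the second Lmnb1 probe gave 0.48 on the deposited scale (adjusted p = 0.0098). Lmnb1 was 11.2-fold lower in MEFs than in brain-NSCs (-3.49, SE 0.12, adjusted p = 1.2e-16) and 8.70-fold lower than in ESCs (-3.12, SE 0.12, adjusted p = 7.6e-16). The second, dimmer Lmnb1 probe was lower in MEFs than in brain-NSCs by at least 1.98-fold (-1.04, adjusted p = 1e-06), and was not above background in MEFs. In iPS-NSCs #1, Lmnb1 was below brain-NSCs by -0.76 (SE 0.12, adjusted p = 4.4e-05) and below iPS-NSCs #3 by -0.49 (adjusted p = 0.0062), so the line with more Lmna signal had less Lmnb1 signal. The second probe gave -0.46 (adjusted p = 0.019) and -0.21 (adjusted p = 0.42) in these comparisons. In iPS-cNSCs the difference from brain-NSCs was -0.43 (adjusted p = 0.0064), but 0.19 under median scaling and -0.03 in the second probe (adjusted p = 0.9). In ESCs it was -0.37 (adjusted p = 0.016), but -0.18 in the second probe (adjusted p = 0.35). It was -0.44 under median scaling (adjusted p = 0.03) and -0.38 after background correction (adjusted p = 0.071).

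**Figure D3:**
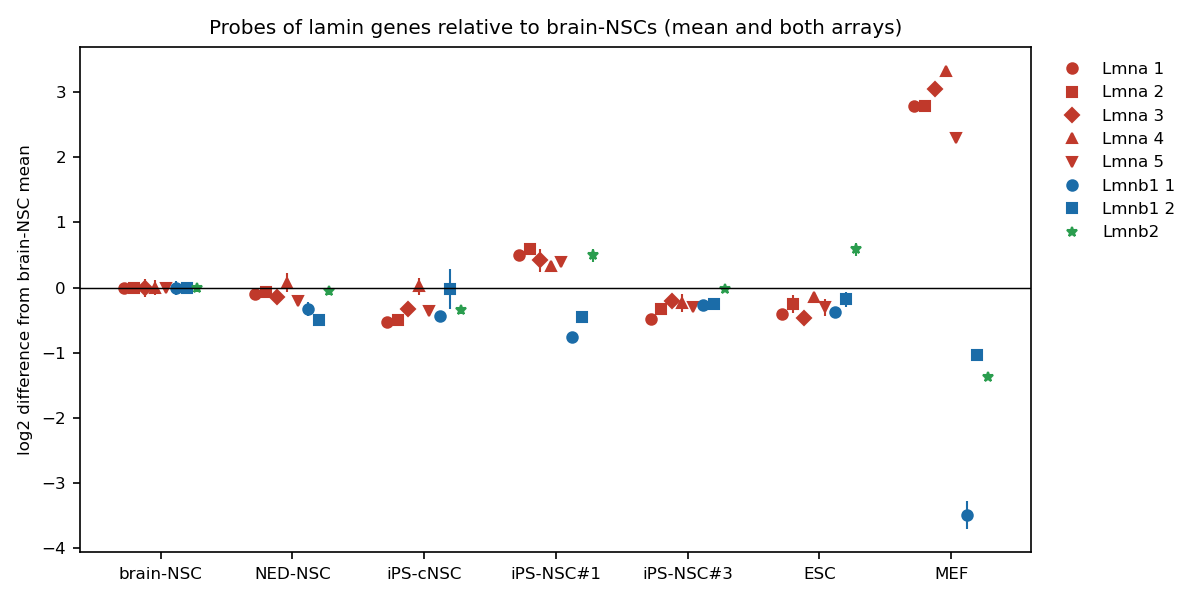
Log2 difference from the brain-NSC mean (y axis) for 5 Lmna probes (red), 2 Lmnb1 probes (blue) and the Lmnb2 probe (green) in the 7 groups, with symbols for means of 2 arrays and vertical lines that join both arrays. In MEFs all Lmna probes lie above 0, at 2.29 to 3.32, and all B-type probes lie below 0, at -1.04 to -3.49, and in iPS-NSCs #1 all 5 Lmna probes lie above 0.

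Of the neuronal filament genes, Ina, whose product assembles early in developing neurons, was 8.53 and 8.88 in ESCs. On the other 12 arrays Ina lay between 7.37 and 7.96, and only NED-NSCs had both of these above background (7.96 and 7.91). Ina was 2.06-fold higher in ESCs than in brain-NSCs (1.04, SE 0.12, adjusted p = 1.9e-07). The difference was 0.87 without ESC replicate 2 or brain-NSC replicate 2, 0.77 under median scaling and 2.50 after background correction. Against MEFs, where Ina was not above background, ESCs were at least 2-fold higher (adjusted p = 3.4e-08). Nefl, the light chain of mature neurofilaments, was at or above background on 1 array (brain-NSC replicate 2, at 7.70), where its detection p was 0.0602. Its group means lay between 7.28 and 7.57. Of the 10 neuronal markers, 7 were above background on both arrays in NED-NSCs, against 2 to 5 in the other groups, and Tubb3 and Snap25 were above it in no group. The summed signal of these markers was instead highest in iPS-cNSCs, at 12700 to 14100, against 9800 to 9840 in NED-NSCs.

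GFAP, the filament protein of astrocytes, was above background on both NED-NSC arrays (8.02 and 7.99) and on 1 brain-NSC array (7.70 and 7.56). The detection p of that brain-NSC array was 0.0501. All other groups lay below background, with means of 7.35 to 7.50. Gfap was higher in NED-NSCs than in brain-NSCs by 0.37 (SE 0.08, adjusted p = 0.0028), under 2-fold on the deposited scale. The difference was 0.29 under median scaling and 1.22 after background correction. NED-NSCs were at least 1.24-fold above iPS-cNSCs (iPS-cNSC minus NED-NSC -0.54, SE 0.08, adjusted p = 4.2e-05, and -1.69 after background correction), where no member was called on the deposited scale and 2.51% of all probes were. The wider astrocyte list did not follow Gfap: 8 of 8 markers were above background on both arrays in iPS-cNSCs and 5 of 8 in NED-NSCs, with a summed signal of 27700 to 29500 and 15600 to 16100.

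The simple-epithelial keratins were dim. Krt8 was 8.31 and 8.45 in ESCs and 8.04 and 7.87 in MEFs, against 7.63 to 7.83 on the NSC arrays. It was higher than in brain-NSCs by at least 1.60-fold in ESCs (0.75, SE 0.09, adjusted p = 4.5e-07) and at least 1.19-fold in MEFs (0.32, adjusted p = 0.0061). Its type I partner Krt18 was 7.84 and 7.93 in ESCs and 7.96 and 8.14 in MEFs, and not above background on any NSC array. Krt18 was higher than in brain-NSCs by at least 1.13-fold in ESCs (0.51, SE 0.10, adjusted p = 0.00018) and at least 1.27-fold in MEFs (0.67, SE 0.10, adjusted p = 4.8e-06). Against iPS-cNSCs and both iPS-NSC lines, Krt8 in MEFs did not pass an adjusted p of 0.05. Krt8 was lower in MEFs than in ESCs (-0.43, adjusted p = 0.00041, and -0.09 under median scaling), whereas Krt18 gave no difference past the threshold (0.16, interval -0.04 to 0.37, adjusted p = 0.17). Krt19 was 7.82 and 7.90 in MEFs and below background elsewhere, a rise of at least 1.12-fold over brain-NSCs (0.64, SE 0.08, adjusted p = 5.1e-07). After background correction, Krt8 (2.08) and Krt18 (1.46) were called higher in ESCs, and Krt8 (1.07), Krt18 (1.92) and Krt19 (1.63) in MEFs, where 20% and 24.3% of all probes were then called. Of 8 epithelial markers, 6 were above background on both arrays in ESCs, with a summed signal of 9300 to 9880. In MEFs 2 of 8 were, with a summed signal of 1510 to 1550, against 0 or 1 of 8 in the NSC groups, with 1400 to 1500. The part of these markers in the keratin values was not tested.

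Directly compared by the brightest probes, MEFs and ESCs differed in 5 of 10 members, with Nes, Vim and Lmna higher and Lmnb1 and Ina lower in MEFs, where 15.6% of all probes were called. The second probes of Nes (0.57, adjusted p = 4.5e-05) and Lmnb1 (-0.86, adjusted p = 1.3e-05) had the same signs but were not called. The Nes one was not above background in ESCs, nor the Lmnb1 one in MEFs. The Ina difference was under 2-fold, at -0.95, under median scaling and at -0.96 without ESC replicate 2. ESCs were the only group with less vimentin signal than all others, and MEFs the only group with more lamin A/C and less lamin B1 signal than all others, by arrays that did not overlap. The ESCs were grown on feeder MEFs and held fibroblast marker signal, whose part in the Vim, Nes, Lmna and keratin values of ESCs was not tested.

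Other intermediate filament genes, 25 in number and listed with earlier results known, were mostly dim: 16 were above background on any array. In ESCs, 2 were higher than in brain-NSCs and 1 lower, and in MEFs 1 was higher and 2 lower. These counts are near the share of all probes called, 10.3% in ESCs and 12.3% in MEFs. The median over the list was 0.05 and 0.01, against 0 and -0.03 over all probes. Krt17, a keratin of basal and stressed epithelium, was 10.59 and 10.48 in ESCs and below background on all other arrays, at least 7.12-fold above brain-NSCs (3.06, SE 0.09, adjusted p = 1.2e-17). Nefh, the neurofilament heavy chain, was 9.22 and 8.93 in ESCs and below background on all others, at least 2.60-fold higher (1.59, SE 0.10, adjusted p = 5.5e-12). Krt20, a keratin of gut epithelium, was 9.48 and 9.59 in MEFs and below background elsewhere, at least 3.57-fold higher (2.15, SE 0.09, adjusted p = 4e-15). Each of these 3 genes was thus above background in 1 group only.

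The second B-type lamin, Lmnb2, was 8.71 and 8.70 in MEFs against 9.67 to 10.76 on the other arrays, and was lower than in brain-NSCs by -1.37 (SE 0.10, adjusted p = 1.8e-10), or by -0.91 under median scaling. Lmnb2 thus moved with Lmnb1 and against Lmna in MEFs. Krt10, a keratin of upper epidermis, was bright in all NSC groups (10.56 to 11.17) and lower in ESCs (-1.19, adjusted p = 3.2e-09) and MEFs (-1.51, adjusted p = 4.9e-11, and -0.97 under median scaling). Synm (synemin), which assembles with vimentin, was 8.78 and 8.89 in iPS-NSCs #3 against 7.73 and 7.69 in brain-NSCs (1.12, SE 0.11, adjusted p = 6.4e-08), by 1 of its 3 probes, and on the deposited scale it was the only gene of the list called in an NSC group against brain-NSCs. After background correction, 1 gene was higher and 1 lower in iPS-cNSCs, 2 were lower in NED-NSCs, 5 were higher and 2 lower in ESCs, and 4 were higher and 3 lower in MEFs. Of all 25697 probes, 2662, 1390, 5150 and 6257 were then called, in that order.

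Of genes that process lamins or join them to the nuclear envelope, 18 of 20 were on the array. In MEFs, 2 were higher and 4 lower than in brain-NSCs, with a list median of -0.11 and Lmnb2, which stands in both lists, among the lower genes, but 4 were higher and 2 lower under median scaling. Of all probes, 12.3% were called in MEFs on the deposited scale, and 3849 of 25697 under median scaling. The called genes included Icmt, which methylates farnesylated lamin tails (1.84, SE 0.10, adjusted p = 1e-12), and Sun2, which links lamin A to the cytoskeleton (1.61, SE 0.11, adjusted p = 2.8e-11). Banf1, a DNA-bridging partner of LEM-domain proteins, was lower (-1.82, SE 0.08, adjusted p = 1.9e-14), as was Tmpo, which encodes the lamina-associated polypeptides 2 (-1.54, SE 0.09, adjusted p = 4.4e-12). Banf1 was called by 4 of 4 probes and Tmpo by 1 of 3. In ESCs, 3 were higher and 1 lower, where 10.3% of all probes were called. Fnta and Fntb, the subunits of farnesyltransferase, were higher by 1.14 (SE 0.08) and 1.22 (SE 0.11), and Lbr, the lamin B receptor, by 1.15 (SE 0.11), with adjusted p of 9.8e-09 or less. Zmpste24, the protease that cuts prelamin A, was lower in ESCs by 1 of its 4 probes (-1.06, SE 0.10, adjusted p = 4.9e-09). In iPS-cNSCs only Rce1, which trims the farnesylated tail, was called on the deposited scale (-1.04, SE 0.10, adjusted p = 4.7e-08), but its difference was -0.23 under median scaling, where 5 genes of the list were higher and 0 lower, with a list median of 0.40 against -0.18. Of all probes, 2.76% were called in iPS-cNSCs on the deposited scale, and 2809 of 25697 under median scaling.

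Cytolinkers and filament-binding proteins tie filaments to membranes, to each other and to chaperones. Of the 13 listed genes on the array, 7 were higher and 0 lower in MEFs than in brain-NSCs, where 12.3% of all probes were called. The list median was 1.19 against -0.03 over all probes. Plec, or plectin, which crosslinks vimentin, was 14.15 and 14.06 in MEFs against 8.41 to 10.71 elsewhere, 25-fold above brain-NSCs (4.64, SE 0.10, adjusted p = 3.1e-20). Of its 14 probes, 6 were above background on any array and 2 were called higher in MEFs. Hspb1, a small heat shock protein that binds filaments, was 11.83 and 11.82 in MEFs and below background on all NSC arrays, at least 17.4-fold higher (4.28, SE 0.10, adjusted p = 1.2e-19). In ESCs, 4 of the 13 were higher and 1 lower, where 10.3% of all probes were called. Hspb1 was higher by at least 8.02-fold, Trim2 by 2.43, Pkp2 by 2.27 and Plec by 1.25 on the log2 scale, and Cryab was lower by -1.28. No gene of this list was called in any of the 4 NSC groups against brain-NSCs on the deposited scale. After background correction, 2 were higher and 1 lower in iPS-cNSCs and 1 was higher and 2 lower in NED-NSCs, and 2 were higher in iPS-cNSCs under median scaling. Over the whole array, 2662, 1390 and 2809 of 25697 probes were called in these fits, in that order.

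**Figure D4:**
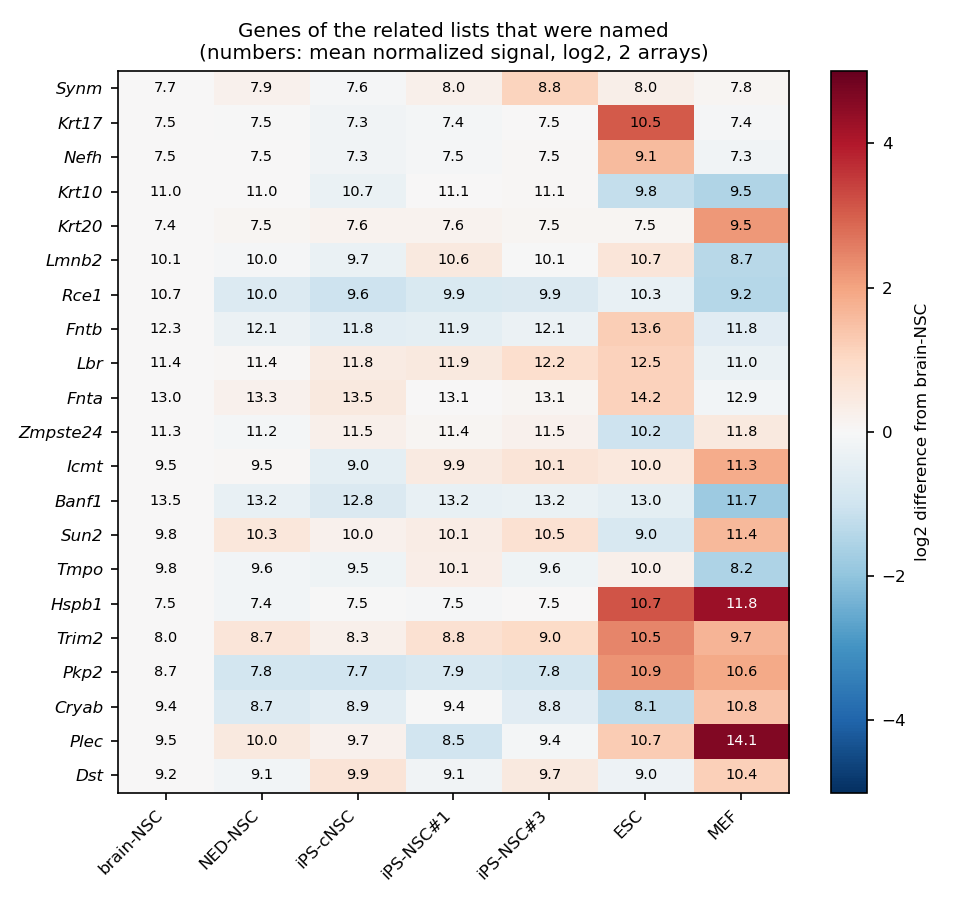
Mean normalized log2 signal (numbers, mean of 2 arrays) and log2 difference from brain-NSCs (colour) for the named genes of the 3 related lists, in the 7 groups. Strong colours lie in the ESC and MEF columns, with Plec (mean 14.1) and Hspb1 (mean 11.8) in MEFs and Krt17 (mean 10.5) in ESCs, and levels of different genes come from different probes and cannot be compared.

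By likeness of pattern, measured as Pearson's r over the 7 group means and given as a description, Nes was closest to Tmem147 (0.994), Fads2 (0.994) and Bmi1 (0.993). Vim was closest to Bmp1 (0.987), Lmna to Senp5 (0.992), and Ina to Pick1 (0.988). Lmnb1 was closest to Nusap1 (0.995), Ndufaf4 (0.994) and Spag5 (0.990). The 7 points are means of 2 arrays each with a shared normalization, and the ESC or MEF mean lies apart from the NSC means for each of these member genes. Pearson's r takes no account of the size of the differences. The group means of Tmem147 and Senp5 spanned only 0.61 and 0.76 on the log2 scale, against 4.08 for Nes and 3.30 for Lmna.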

How the data were processed

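The authors hybridized labelled cRNA from 14 samples to Illumina MouseRef-8 v2 arrays, with signals extracted in GenomeStudio 2011.1 per the labels. All main results come from the deposited log2 values, which had been quantile normalized by the authors. A second deposited table gives linear intensities and a detection p-value per probe, before normalization. Of its signal columns, 10 matched an array by name, and 8 columns (4 of signals and their p-values) were not used, so both iPS-NSC lines have no values from it. The log2 level at which the detection p-value crosses 0.05 was 7.68 to 7.74 on the matched arrays, and 7.7 was used for all, and this call matched the detection call of 98.2% to 99.8% of probes on each array.

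Arrays were grouped by their labels. Probes were named from the platform annotation (23978 of 25697 have 1 symbol). limma 3.58.1 in R 4.3.3 fitted 1 mean per group over all probes with an intensity trend, and p-values were adjusted by the Benjamini-Hochberg method over all probes within each of 10 comparisons. Fits were checked on simulated data. An "at least" fold sets a group not above background on any array to its background level. The 3 most alike genes by Pearson's r, and up to 4 called genes per related list and comparison by size of difference, were named. Plec in ESCs and array-range extremes were chosen after their values were seen. The members and lists were chosen with earlier results of these data known. Alternatives were the methods' detection filter (above background in at least 50% of samples), no trend, the methods' local-pooled-error test coded anew, a replicate block, smaller fits, mean probes, normexp background correction with quantile normalization (neqc), median scaling, quantile normalization of the raw intensities, and leaving out each array.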

Additional observations from a re-analysis of the deposited data

Results flagged for a closer look

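The change from brain-NSCs differed between the 2 iPS-NSC lines for 3 of the 10 genes, by the direct limma test of iPS-NSCs #1 against #3. The difference was 0.98 for Lmna (adjusted p = 3.5e-08), 0.37 for Nes (adjusted p = 0.03) and -0.49 for Lmnb1 (adjusted p = 0.0062), and all were under 2-fold. For each of these genes the 2 arrays of line #1 did not overlap the 2 arrays of line #3. These values are for the brightest probes. The second probe gave 0.22 for Nes (adjusted p = 0.18) and -0.21 for Lmnb1 (adjusted p = 0.42). Past 2-fold, 1.35% of all probes were called between the lines. The share that passed an adjusted p alone, or did not overlap, was not counted.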

How the results depend on the processing

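Without each array in turn, the count of called genes ranged from 0 to 1 for iPS-cNSCs against brain-NSCs, iPS-cNSCs against the iPS-NSC lines and iPS-NSCs #1 against #3, from 2 to 3 for ESCs and 3 to 4 for MEFs against brain-NSCs, and from 4 to 5 for MEFs against ESCs, and it stayed at 0 for the other 4. After background correction (neqc), the counts were 1 for NED-NSCs against brain-NSCs (Gfap), 5 for ESCs (Krt8 and Krt18 added), 7 for MEFs (Krt8, Krt18 and Krt19 added), 1 for iPS-cNSCs against NED-NSCs (Gfap, lower), and Krt8 (-1.02) and Krt19 (1.64) were added in MEFs against ESCs. Under median scaling, Vim was called in iPS-cNSCs against brain-NSCs (count 1) and against NED-NSCs (count 1). The differences of iPS-cNSCs from brain-NSCs turned to 0.11 for Nes, 0.31 for Lmna and 0.19 for Lmnb1, and those from NED-NSCs to 0.62 for Lmna, 0.93 for Nes and 0.83 for Lmnb1; the cause was not tested. The median of expressed probes shifted by 0.58 and 0.73 in these comparisons and by 0.37 and 0.42 in MEFs against brain-NSCs and ESCs, and the share of higher calls over all probes went from 62.4% to 97.3%, 60.8% to 97.9%, 51.5% to 76.7% and 49.7% to 79.5%. It also went from 59.5% to 41.6% in NED-NSCs and from 48.5% to 37.2% in ESCs. Over all probes, neqc called 2662 probes against 708 in iPS-cNSCs, 1390 against 464 in NED-NSCs, 5150 against 2655 in ESCs, 6257 against 3162 in MEFs, 2304 against 645 in iPS-cNSCs against NED-NSCs and 7405 against 4015 in MEFs against ESCs. Median scaling called 2809 and 3577 in both iPS-cNSC comparisons.

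With the replicate number as a block, the counts were 3 for ESCs, 4 for MEFs, 1 for iPS-cNSCs against the iPS-NSC lines, 5 for MEFs against ESCs and 0 for the other 6, and the pairing changed no count. Deviations of same-numbered arrays correlated at -0.24 to 0.12 over 21 pairs of groups. Such correlations cannot show a batch that does not follow the replicate number, and shared batches were not tested. The local-pooled-error test, the fits without trend, with only the groups compared, with mean probes or with re-quantiled intensities changed no count, and the detection filter gave values for 5 genes and left their calls as they were. With 2 arrays per group, and no background subtraction, differences in genes near 7.7 on the log2 scale are the least certain.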
